A study of Homo sapiens with 6 samples.

Results

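The data concern 55 genes that carry a human cell from G1 into S phase and copy its DNA, among the 60728 genes counted by RNA-seq in JJN3, a human multiple myeloma (malignant plasma cell) line. The members were taken by symbol from a list of origin licensing, helicase, polymerase, clamp, nucleotide supply, E2F and chromatin assembly genes, and all 55 were found. The rule itself uses no measured value, but the list was chosen with earlier results of these data known. Cells had received DMSO, the solvent used as vehicle, or WNK463, an inhibitor of the WNK family of kinases, for 2 h or for 6 h, with 2 libraries in each of the 3 groups. The labels give the genotype of all groups as wild type and give 2 doses for WNK463, 5 µM in the sample protocols and 1 µM in the series design, which could not be settled here. The series design lists 0 h beside 2 h and 6 h, while the sample labels call the DMSO cells a control and give them no time, so time in culture and treatment cannot be told apart. Nothing says whether the replicates were separate cultures, so the p-values speak only of the spread among these 6 libraries.

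DNA replication starts at origins that are licensed in G1, when the origin recognition complex with CDC6 and CDT1 loads the MCM2 to MCM7 helicase in an inactive form. At the start of S phase the kinases CDC7-DBF4 and cyclin E-CDK2 let CDC45 and the GINS complex join MCM2 to MCM7 and form the active helicase. Polymerases alpha, delta and epsilon then copy the strands, with PCNA as the sliding clamp and RPA covering single-stranded DNA. Many of these genes are known targets of the E2F transcription factors, which are held back by the RB proteins until G1 cyclin-dependent kinases release them.

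The fragments counted in genes came to 18013790 and 21300013 in DMSO, 18713007 and 24002291 in the 2 h libraries, and 18959025 and 19264703 in the 6 h libraries. All 55 members passed the filter on low counts that left 15548 genes to test, the lowest member count in any library being 270. Levels are given as CPM, counts scaled to library size with TMM factors, a scaling that equalises libraries on genes that change little. Counting ignored strand, and 11 members share over 5% of their exonic length with other genes: MCM2, GINS4, POLA2, TYMS, CCNE2 and RFC5, as given with their results, and PRIM1 (22.2%), CDK2 (16.8%), GINS3 (10.9%), MCM7 (8.94%) and POLD1 (8.63%). Of 12 plasma cell markers 11 were above 1 CPM in every library, CD27 being the exception, and their summed level was 2578 to 2669 CPM in DMSO, 2875 to 2909 CPM at 2 h and 2609 to 2629 CPM at 6 h. That list holds the cyclin gene CCND2, and without it the sums were 2392 to 2477 CPM in DMSO, 2514 to 2553 CPM at 2 h and 2341 to 2379.9 CPM at 6 h. Of 6 T cell markers TRAC was above 1 CPM in every library (1.28 to 4.68 CPM) and CD3D and CD3G had no count in any, and none of 5 myeloid markers was above 1 CPM in every library, CD68 having no count. Of 5 B cell markers 3 were above 1 CPM in every library, CD79B leading at 15.8 to 22.3 CPM, and the list summed to 24.3 to 24.9 CPM in DMSO, 22.8 to 30.3 CPM at 2 h and 23.4 to 23.96 CPM at 6 h. The 7 stromal and epithelial markers, 4 of them above 1 CPM in every library, summed to 518 to 530 CPM in DMSO, 689 to 704 CPM at 2 h and 791 to 815 CPM at 6 h. Most of that sum was the filament gene VIM, with 418 and 431 CPM in DMSO, 567 and 575 CPM at 2 h and 699 and 669.7 CPM at 6 h. The epithelial gene EPCAM had 92.1 and 90.0 CPM in DMSO, 107.0 and 115.1 CPM at 2 h and 101.4 and 106.6 CPM at 6 h. KRT18 had 4.99 to 9.9 CPM and PECAM1 1.37 to 5.67 CPM across the libraries. COL1A1, COL1A2 and KRT8 were below 1 CPM in every library. The part of these marker differences between groups in the results below was not tested.

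The E2F words defined below were found in promoters of 23 of the 46 members with a promoter sequence. RefSeq promoter sequences (GRCh38.p14, from 250 bases before to 50 bases after the annotated start) matched 46 of the 55 members by symbol. Shares are of genes, and a gene counted if any of its promoters held the word, so genes with several starts had more chances. An E2F word was any of TTTCCCGC, TTTCGCGC, TTTGCCGC or TTTGGCGC on either strand. It stood in 50% of these 46 members, against 3.99% of all 27305 genes with a promoter of the same length. Among 72 other genes of the pathway with a promoter it stood in 16 (22.2%). Many members are known E2F targets, so the higher share of E2F words is not independent of how the list was made. The genes compared were not matched for GC content or expression. CCAAT was in 26 members (56.5%) and in 39.7% of all these genes. The E-box CACGTG was in 5 members (10.9%), against 8.77% of all. TTTGAA, the cell cycle homology element of G2-M genes, was in 2 members (4.35%), against 18.2% of all. The words were searched on both strands, and different E2F words can overlap each other.

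The following stretches, which lie upstream of the RefSeq start, are shown because they carry these words in genes that the results turn on: GINS2, MCM6, CDC25A and CHAF1A fell at 6 h, E2F2 fell at 2 h, and E2F1 and CDT1 were not called at either time. Each is written 5′ to 3′ on the gene's own strand. Capitals mark E2F words, except in CHAF1A, which has no E2F word and where they mark a pair of overlapping CCAAT words read on the 2 strands.
GINS2: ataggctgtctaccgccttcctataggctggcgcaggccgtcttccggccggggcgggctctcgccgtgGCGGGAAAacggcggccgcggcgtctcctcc
MCM6: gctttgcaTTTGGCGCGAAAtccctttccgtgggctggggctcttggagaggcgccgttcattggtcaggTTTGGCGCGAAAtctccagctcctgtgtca
CDC25A: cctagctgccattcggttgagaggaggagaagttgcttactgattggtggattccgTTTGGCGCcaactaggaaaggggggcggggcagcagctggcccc
CHAF1A: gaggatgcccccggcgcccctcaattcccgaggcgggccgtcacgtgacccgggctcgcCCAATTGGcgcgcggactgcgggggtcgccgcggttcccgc
E2F2: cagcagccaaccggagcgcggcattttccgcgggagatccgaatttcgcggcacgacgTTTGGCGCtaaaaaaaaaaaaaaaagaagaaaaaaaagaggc
E2F1: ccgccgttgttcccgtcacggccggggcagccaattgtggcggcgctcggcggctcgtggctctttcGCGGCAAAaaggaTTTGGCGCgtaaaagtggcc
CDT1: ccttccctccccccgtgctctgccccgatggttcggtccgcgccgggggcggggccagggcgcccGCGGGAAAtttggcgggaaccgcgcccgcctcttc

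The windows end 1 base before the start, save that of MCM6, which runs from 160 to 61 bases before it (chr16:85688955-85689054, minus strand, for GINS2; chr2:135876504-135876603, minus, for MCM6; chr3:48188418-48188517, minus, for CDC25A; chr19:4402540-4402639, plus, for CHAF1A; chr1:23531234-23531333, minus, for E2F2; chr20:33686386-33686485, minus, for E2F1; chr16:88803689-88803788, plus, for CDT1). In MCM6 each of the 2 capital blocks holds TTTGGCGC on this strand overlapping TTTCGCGC on the other. The word of GINS2 begins 31 bases before the start, that of CDC25A 44 bases, that of E2F2 42 bases and that of CDT1 35 bases. Those of E2F1 begin 33 and 20 bases before it. By the 6 h call, an E2F word stood in 10 of 16 matched members that fell (62.5%), in 2 of 3 that rose and in 11 of 27 that were not called (40.7%). This is a description of letters in fixed windows, without a test.

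After 6 h of WNK463 20 of the 23 replication genes that passed the test were lower than in DMSO, and the largest falls were in genes of the replicative helicase and its activation. Of the 55 members 20 fell (36.4%), 3 rose (5.45%, 1 member without 6 h replicate 1) and 32 did not pass the test, a call being an adjusted p under 0.05 by edgeR's quasi-likelihood test with Benjamini-Hochberg adjustment over all genes tested. Over all 15548 genes tested, 18.6% were called lower and 18% were called higher, 36.6% in either direction. Well-measured genes are called more often, and among the 8023 genes at or above the mean level of the lowest member (16.3 CPM), 27.6% were called lower and 24.2% higher. The members' share of falls lay above both and their share of rises below both, and neither difference was tested. The comparison is a description, since the members were chosen with earlier results of these data known. By role, falls were called in 50% of the licensing and of the chromatin genes, 42.9% of the clamp and 40% of the firing genes. They were called in 33.3% of the polymerase, 25% of the nucleotide, 20% of the lagging strand and 16.7% of the G1-S control genes. Each role holds 10 genes or fewer, and none was tested against the shares over all genes. Log2 changes of single genes are edgeR estimates, given with their SE after the ± sign. The median log2 change of the members was -0.14, and 37 of 55 lay below 0, against a median of about 0 (-0.005) and 7846 of 15548 below 0 for all genes tested. In every one of the 23 called members both 6 h libraries lay outside the range of the DMSO libraries. This adds no support, since the calls were made on the same libraries. It also held for members not called, such as CDC6, MCM7 and GINS3. The falls were moderate, with a median of 19.9%, and 3 members had a log2 change of -0.5 or less. The sum of all members was 6447 ± 43.3 CPM at 6 h, against 7162 ± 21.2 CPM in DMSO (SD, n = 2 each). In bulk RNA, fewer cells in S phase and less of these mRNAs per cell cannot be told apart.

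**Figure D1:**
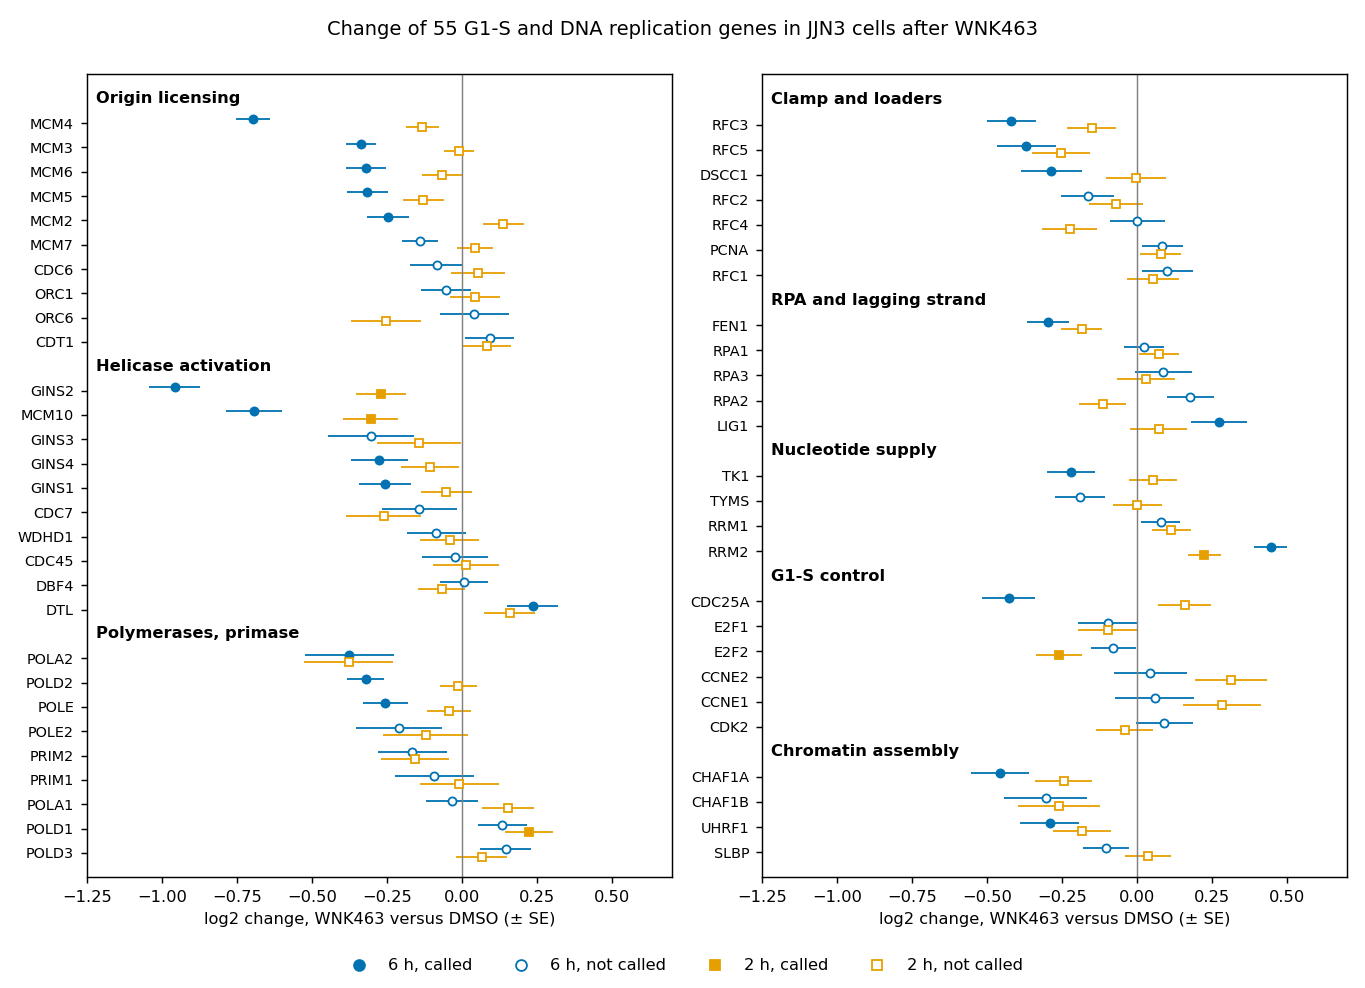
The log2 change of each of the 55 members in WNK463 against DMSO is plotted on the horizontal axis by role, circles for 6 h and squares for 2 h, with bars of 1 SE and filled marks for calls. GINS2, MCM4 and MCM10 lie farthest to the left at 6 h, RRM2 lies farthest to the right, and most 2 h marks are open.

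**Figure D2:**
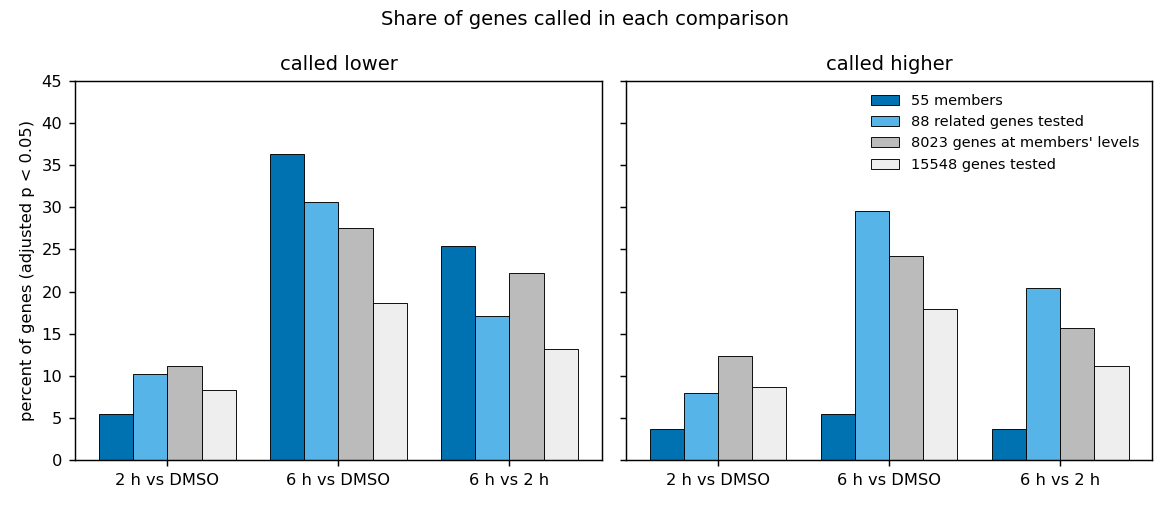
Bars give the percent of genes called lower (left panel) and higher (right panel) in each comparison for the 55 members, the 88 related genes tested, the 8023 genes at or above the members' lowest mean level and all 15548 genes tested. At 6 h against DMSO 36.4% of the members were called lower and 5.45% higher.

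Among the 10 origin licensing genes, 5 of the 6 helicase subunits MCM2 to MCM7 fell at 6 h. The loading factors among the members (CDC6, CDT1, ORC1 and ORC6) were not called. MCM4 had 553 and 537 CPM in DMSO, 498 and 497 CPM at 2 h and 338 and 335 CPM at 6 h, so both 6 h libraries lay below all the others. Its log2 change at 6 h was -0.70 ± 0.0564 (adjusted p = 5.7e-14), a level 38.3% lower. MCM3, the most abundant member, had 1006 and 1021 CPM in DMSO, 1016 and 998 CPM at 2 h and 793 and 810.4 CPM at 6 h. Its DMSO and 2 h libraries overlapped and its 6 h libraries stood below them, with a log2 change of -0.34 ± 0.0503 (adjusted p = 4.1e-07). MCM6 had 207 and 217 CPM in DMSO, 199 and 206 CPM at 2 h and 170.3 and 169 CPM at 6 h, and changed by -0.32 ± 0.0667 at 6 h on the log2 scale (adjusted p = 0.000132).

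MCM5 had 196 and 189 CPM in DMSO, 177 and 175 CPM at 2 h and 151 and 158 CPM at 6 h, 3 levels that did not overlap, with a log2 change at 6 h of -0.32 ± 0.0685 (adjusted p = 0.000225). MCM2 had 191 and 176 CPM in DMSO, 193 and 210.1 CPM at 2 h and 152 and 157 CPM at 6 h, so that the 2 h libraries were the highest and the 6 h libraries the lowest. The 2 h change of MCM2 against DMSO, 0.14, was not called (adjusted p = 0.181). Its log2 change at 6 h was -0.25 ± 0.0699 (adjusted p = 0.00414), the call was lost without 6 h replicate 1 (-0.23), and 23.6% of its exonic length is shared with other genes. MCM7 was the subunit not called at 6 h against DMSO, with 383 and 352 CPM in DMSO, 376 and 381 CPM at 2 h and 326 and 341 CPM at 6 h (log2 change -0.14 ± 0.0601, adjusted p = 0.0656). Without DMSO replicate 2 it was called, at -0.20.

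The subunits of this complex, which holds them in equal number as a protein, had unequal counts per kilobase of exon. The divisor is the length of all annotated exons of a gene together, from 3645 bases for MCM3 to 7268 for MCM5. It can exceed the mRNA length, so the order also depends on the annotation. Per kilobase of exon, MCM3 averaged 278 ± 2.97 CPM in DMSO (SD, n = 2), followed by MCM7 with 83.8 ± 4.98, MCM4 with 78.2 ± 1.61, MCM6 with 51.3 ± 1.82, MCM2 with 38.9 ± 2.18 and MCM5 with 26.5 ± 0.737. MCM7 and MCM4 differed by about the SD of MCM7 between its libraries, and the other neighbours in this order by more than the larger of their SDs. These SDs do not cover the choice of exon length. At 6 h the order was the same, with 220.0 ± 3.31 CPM per kilobase for MCM3, 76.1 ± 2.39 for MCM7 and 48.2 ± 0.318 for MCM4. Together the 10 licensing genes summed to 2250 ± 30.9 CPM at 6 h, against 2813 ± 31.4 CPM in DMSO (SD, n = 2 each).

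Of the factors that place MCM2 to MCM7 on DNA, those among the members (CDC6, CDT1, ORC1 and ORC6) did not pass the test. The origin recognition gene ORC2, given below with the related genes, fell at 6 h. CDC6, the loading ATPase, had 65.6 and 72.7 CPM in DMSO, 71.8 and 71.7 CPM at 2 h and 65.1 and 65.4 CPM at 6 h, a log2 change at 6 h of -0.08 ± 0.0896 (adjusted p = 0.5). CDT1, its partner in loading, had 106 and 93.4 CPM in DMSO, 105 and 106 CPM at 2 h and 112 and 100.4 CPM at 6 h, with a change of 0.09 ± 0.0814 (adjusted p = 0.406) and overlapping groups. The origin recognition subunits ORC1 (-0.05) and ORC6 (0.04) lay near 0 at 6 h.

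**Figure D3:**
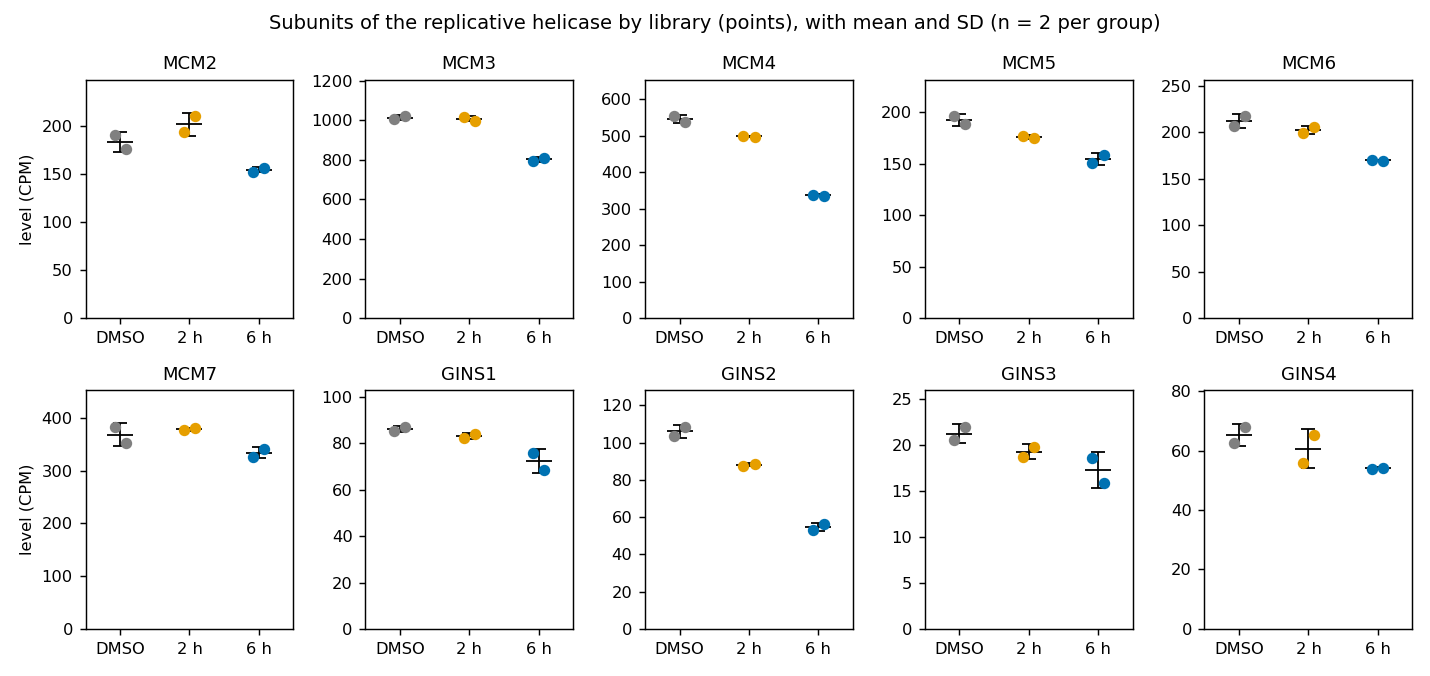
Each panel shows CPM on the vertical axis for a subunit of the helicase in DMSO, 2 h and 6 h, with points for libraries and bars for the mean and SD (n = 2). All panels start at 0. In GINS2 and MCM4 the 6 h points stand clear below all others, and in MCM7 and GINS3 the groups lie close together.

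Of the 10 genes of helicase activation and origin firing, 4 fell and 1 rose at 6 h. GINS2 (ENSG00000131153.9, chr16:85676198-85690073, minus strand, hg38), which encodes the PSF2 subunit of the GINS complex, showed the largest fall of all members. It had 104 and 108 CPM in DMSO, 87.4 and 88.6 CPM at 2 h and 53.1 and 56.2 CPM at 6 h, 3 levels with wide gaps between them. Its log2 change at 6 h was -0.96 ± 0.085 (adjusted p = 8.86e-13), 48.5% lower than in DMSO. MCM10 (ENSG00000065328.16, chr10:13161554-13211104, plus strand), which helps to activate the assembled helicase, had 75.6 and 78.1 CPM in DMSO, 62.5 and 62.03 CPM at 2 h and 44.98 and 50.01 CPM at 6 h. The 3 groups did not overlap, and the log2 change at 6 h was -0.69 ± 0.0932 (adjusted p = 4.55e-08).

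The other GINS subunits had smaller changes in value than GINS2. GINS1 had 85.3 and 87.1 CPM in DMSO, 82.3 and 83.9 CPM at 2 h and 75.8 and 68.5 CPM at 6 h (log2 change at 6 h -0.26 ± 0.0854, adjusted p = 0.0151), and its call was lost without 6 h replicate 2 (-0.18). GINS4 had 62.6 and 67.99 CPM in DMSO, 55.9 and 65.2 CPM at 2 h and 53.8 and 54.2 CPM at 6 h (log2 change -0.28 ± 0.0961, adjusted p = 0.0208). That call was lost without 6 h replicate 1 (-0.27), 6 h replicate 2 (-0.28) or DMSO replicate 2 (-0.21), and 23.4% of the exonic length of GINS4 is shared with other genes. GINS3, the least abundant of the 4, had 20.5 and 22.02 CPM in DMSO, 18.7 and 19.9 CPM at 2 h and 18.6 and 15.9 CPM at 6 h, and its log2 change of -0.30 ± 0.142 was not called (adjusted p = 0.0915).

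CDC45, the other partner of MCM2 to MCM7 in the active helicase, was not called (-0.02 ± 0.11, adjusted p = 0.898). Neither were the origin-firing kinase CDC7 (-0.14), its activator DBF4 (0.01) or WDHD1, which ties polymerase alpha to the helicase (-0.09). WDHD1 was called without DMSO replicate 1 (-0.25) and DBF4 without DMSO replicate 2 (0.18). DTL, the substrate receptor of the ubiquitin ligase that removes CDT1 in S phase, rose. It had 92.4 and 87.2 CPM at 6 h, against 73.3 and 79.2 CPM in DMSO (log2 change 0.24 ± 0.0845, adjusted p = 0.0247). The groups did not overlap, but the call was lost without 6 h replicate 1 (0.19), 6 h replicate 2 (0.28) or DMSO replicate 1 (0.18).

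Of the 9 polymerase and primase genes 3 fell and none was called higher at 6 h by edgeR. That share of falls (33.3%) was near the 27.6% of the 8023 genes at the members' levels. POLD2, an accessory subunit of polymerase delta, fell by 0.32 on the log2 scale (SE 0.0624, adjusted p = 4.69e-05). POLE, the catalytic subunit of polymerase epsilon, fell by 0.26 (SE 0.0742, adjusted p = 0.00523), and its call was lost without 6 h replicate 1 (-0.17). POLA2, a subunit of polymerase alpha that shares 39.4% of its exonic length with other genes, fell by 0.38 (SE 0.149, adjusted p = 0.0429). Its call was lost when any 1 of the 6 h or DMSO libraries was left out, at -0.37 without 6 h replicate 1, -0.38 without 6 h replicate 2, -0.33 without DMSO replicate 1 and -0.42 without DMSO replicate 2. The catalytic subunit of polymerase delta, POLD1, went the other way in value (0.13) without passing the test (adjusted p = 0.207), as did POLD3 (0.15, adjusted p = 0.184). POLD1 was called without DMSO replicate 1, at 0.22. POLA1 (-0.03), the primase subunits PRIM1 (-0.09) and PRIM2 (-0.17) and POLE2 (-0.21) were not called, and PRIM1 was called without DMSO replicate 1, at -0.33.

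Among the 7 genes of the clamp and its loaders, 3 loader subunits fell at 6 h and the clamp itself was not called. PCNA had 190.0 and 205 CPM in DMSO, 222 and 196 CPM at 2 h and 203 and 216 CPM at 6 h, overlapping levels with a log2 change at 6 h of 0.08 ± 0.0695 (adjusted p = 0.372). RFC3, a small subunit of the loader RFC, had 96.03 and 87.5 CPM at 6 h, against 113 and 132 CPM in DMSO, without overlap (log2 change -0.42 ± 0.0822, adjusted p = 5.39e-05). RFC5, another small subunit, fell by 0.37 on the log2 scale (SE 0.0982, adjusted p = 0.00232), and 10.6% of its exonic length is shared with other genes. DSCC1, part of an alternative loader, fell by 0.29 (SE 0.102, adjusted p = 0.0237), and its call was lost without 6 h replicate 1 (-0.33), 6 h replicate 2 (-0.24) or DMSO replicate 2 (-0.15). RFC1 (0.10), RFC2 (-0.17) and RFC4 (0.00) were not called.

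The single-strand binding and lagging strand genes gave 1 fall and 1 rise among 5 at 6 h (20% each). Among the 8023 genes at the members' levels 27.6% fell and 24.2% rose. FEN1, the flap nuclease that trims Okazaki fragments, had 152 and 156 CPM at 6 h, against 195 and 184 CPM in DMSO, and fell by 0.30 on the log2 scale (SE 0.0693, adjusted p = 0.000533). LIG1, the ligase that joins the trimmed fragments, rose, with 71.8 and 64.4 CPM at 6 h, against 59.1 and 53.8 CPM in DMSO (log2 change 0.27 ± 0.0941, adjusted p = 0.0196). The LIG1 groups did not overlap, but the call was lost without 6 h replicate 1 (0.19) or DMSO replicate 2 (0.20). The RPA subunits, which coat single-stranded DNA, were not called, with log2 changes of 0.02 for RPA1, 0.18 for RPA2 (adjusted p = 0.0747) and 0.09 for RPA3.

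Nucleotide supply was the role whose summed level was higher at 6 h with no overlap between the groups, but RRM2 was the 1 of its 4 genes called higher. The median log2 change of the 4 was -0.06, with 1 called lower (25%, against 27.6% of the 8023 genes at the members' levels). The higher sum was thus that of RRM2, the most abundant of them, and not of the role as a whole. RRM2 (ENSG00000171848.15, chr2:10120698-10211725, plus strand), the small subunit of ribonucleotide reductase that limits its activity over the cell cycle, had 458 and 484 CPM in DMSO, 554 and 545 CPM at 2 h and 640.2 and 642 CPM at 6 h. Each group lay above the one before without overlap, and the log2 change at 6 h was 0.44 ± 0.055 (adjusted p = 6.31e-09), a 1.36-fold level. The large subunit RRM1 was not called, with 224 and 226 CPM at 6 h, against 205 and 221 CPM in DMSO (log2 change 0.08 ± 0.0653, adjusted p = 0.38). TK1, which salvages thymidine, fell by 0.22 on the log2 scale (SE 0.0805, adjusted p = 0.0271), a call lost without 6 h replicate 2 (-0.14). TYMS, which makes thymidylate, had a log2 change of -0.19 ± 0.0817 that was not called (adjusted p = 0.0624). It was called without DMSO replicate 2 (-0.29), and 47.5% of its exonic length is shared with other genes, among them ENOSF1. The 4 genes summed to 1071 ± 0.147 CPM at 6 h, against 920.2 ± 14.5 CPM in DMSO (SD, n = 2 each).

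The regulators of the G1-S transition were mostly not called at 6 h, with CDC25A the exception among 6. CDC25A (ENSG00000164045.12, chr3:48157146-48188417, minus strand), the phosphatase that activates CDK2, had 81.98 and 74.6 CPM in DMSO, 87.1 and 87.4 CPM at 2 h and 61.05 and 55.2 CPM at 6 h. The 2 h libraries were the highest and the 6 h libraries the lowest, and the log2 change at 6 h against DMSO was -0.43 ± 0.0892 (adjusted p = 0.000127). Its change at 2 h against DMSO, 0.16, was not called (adjusted p = 0.234). E2F1, the E2F activator, had 56.1 and 51.2 CPM in DMSO, 50.3 and 49.8 CPM at 2 h and 50.02 and 50.2 CPM at 6 h, a change at 6 h of -0.10 ± 0.0984 (adjusted p = 0.476). E2F2 had 139.7 and 129.8 CPM in DMSO, 111 and 114 CPM at 2 h and 121 and 133 CPM at 6 h, lowest at 2 h and overlapping DMSO at 6 h (-0.08 ± 0.0755, adjusted p = 0.441).

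The cyclins that activate CDK2 showed their highest values at 2 h. CCNE1 had 21.6 and 23.9 CPM in DMSO, 30.4 and 25.1 CPM at 2 h and 24.2 and 23.1 CPM at 6 h, a change at 6 h of 0.06 ± 0.132 (adjusted p = 0.779). CCNE2, which shares 37.1% of its exonic length with INTS8 and other genes, had 27.03 and 33.3 CPM in DMSO, 37.6 and 37.6 CPM at 2 h and 33.5 and 28.8 CPM at 6 h (0.04 ± 0.121, adjusted p = 0.818). Neither was called in any of the 3 comparisons by edgeR's test as described above. At 2 h CCNE2 was called by limma voom and with a filter of at least 4 CPM (0.31 each) and without DMSO replicate 2 (0.48), and between 6 h and 2 h with those 2 groups fitted alone (-0.28) and without DMSO replicate 1 (-0.27) or DMSO replicate 2 (-0.28). CDK2 itself was not called at 6 h (0.09 ± 0.0937, adjusted p = 0.491).

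Of the 4 genes of chromatin assembly and maintenance behind the fork 2 fell at 6 h. CHAF1A, the large subunit of the histone chaperone CAF-1, had 55.02 and 54.8 CPM at 6 h, against 83.1 and 67.9 CPM in DMSO (log2 change -0.46 ± 0.0956, adjusted p = 0.000132). The groups did not overlap, although the DMSO libraries stood apart from each other. UHRF1, which brings DNA methylation to copied DNA, fell by 0.29 on the log2 scale (SE 0.0982, adjusted p = 0.0165), and its call was lost without 6 h replicate 1 (-0.21) or DMSO replicate 1 (-0.20). CHAF1B, the partner of CHAF1A, had a similar value to UHRF1 with a wider error and was not called (-0.31 ± 0.137, adjusted p = 0.0777). SLBP, which binds histone mRNA, was not called either (-0.10).

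**Figure D4:**
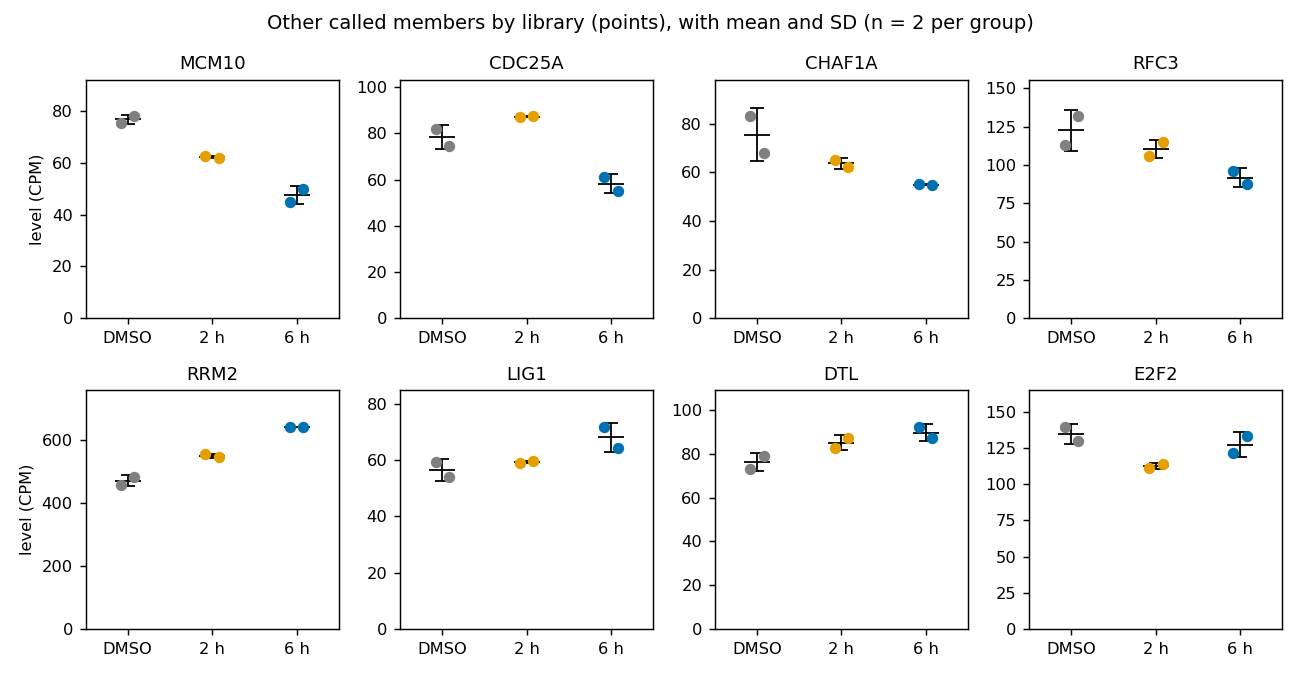
Each panel shows CPM on the vertical axis in DMSO, 2 h and 6 h for a member outside MCM2 to MCM7 and GINS that was called in a comparison with DMSO, with points for libraries and bars for the mean and SD (n = 2). RRM2 steps up and MCM10 steps down across the 3 groups, while CDC25A is highest and E2F2 lowest at 2 h. The 2 h value of CDC25A was not called against DMSO.

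After 2 h of WNK463 few replication genes had changed. Of the 55 members 3 fell (5.45%), 2 rose (3.64%) and 50 did not pass the test, against 8.32% called lower and 8.68% called higher, 17% in either direction, over all genes tested. At the members' own expression levels 11.2% of the 8023 genes were called lower and 12.3% higher, so the members' shares lay below their background in both directions, a difference that was not tested. Their median log2 change was -0.04.

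MCM10 fell at 2 h by 0.30 on the log2 scale (SE 0.0916, adjusted p = 0.0157) and GINS2 by 0.27 (SE 0.0826, adjusted p = 0.0175), and both were also lower at 6 h. E2F2 had 111 and 114 CPM at 2 h, against 139.7 and 129.8 CPM in DMSO, and fell by 0.26 (SE 0.0757, adjusted p = 0.0116). RRM2 rose to 554 and 545 CPM at 2 h, against 458 and 484 CPM in DMSO (log2 change 0.22 ± 0.055, adjusted p = 0.00275). POLD1 had 111 and 121 CPM at 2 h, against 106 and 93.4 CPM in DMSO, with a log2 change of 0.22 ± 0.081 that barely passed (adjusted p = 0.0499925). In all 5 the 2 h libraries lay outside the range of DMSO, as they did in members not called, such as ORC6 and MCM4. This adds no support, since the calls were made on the same libraries.

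The 2 h calls rest on few libraries. Without 2 h replicate 1 there were 0 rises and 1 fall, that of RFC4 (-0.35), and without 2 h replicate 2 there were 1 rise, RRM2, and 0 falls by edgeR. With either 6 h library left out 1 member was called higher, and with either DMSO library left out 6 were called lower. The call of RRM2 was lost without 2 h replicate 1 (0.21), those of MCM10 and E2F2 without 2 h replicate 1 (-0.31 and -0.24) or 2 h replicate 2 (-0.30 and -0.28), and that of GINS2 without 2 h replicate 1 (-0.26), 2 h replicate 2 (-0.28) or DMSO replicate 2 (-0.23). POLD1 lost its call when any 1 library other than DMSO replicate 1 was left out, at 0.15 to 0.28. Scaling by library size alone gave 1 member higher and 9 lower.

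None of the 55 members was called in opposite directions at 2 h and 6 h. A fall at 6 h alone was the commonest pattern among called members, with 18 genes, beside 2 that fell at both times (GINS2 and MCM10) and 1 that fell at 2 h alone (E2F2). RRM2 rose at both times, LIG1 and DTL rose at 6 h alone, POLD1 at 2 h alone, and 30 members were called at neither. Both comparisons use the same DMSO libraries, so these patterns are not independent, and a call at 1 time alone is no test of a difference between the times. The same patterns were not counted over all genes tested, of which 17% were called at 2 h and 36.6% at 6 h. More calls at 6 h than at 2 h were thus not particular to the members.

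The difference between the times was tested directly by comparing 6 h with 2 h of WNK463. The DMSO libraries enter this test only through the filter on low counts, the scaling factors and the shared estimate of the spread. Of the 55 members 14 were lower at 6 h than at 2 h (25.5%), 2 were higher (3.64%) and 39 did not pass the test, against 13.1% lower and 11.1% higher (24.3% in either direction) over all genes tested and 22.2% lower and 15.7% higher among the 8023 genes at the members' levels. GINS2 (-0.69 ± 0.0852, adjusted p = 1.88e-08), CDC25A (-0.59 ± 0.0887, adjusted p = 1.26e-06) and MCM4 (-0.56 ± 0.0564, adjusted p = 9.09e-11) had the largest falls in log2 units. All of MCM2 to MCM7 were lower at 6 h than at 2 h, by 0.38 for MCM2, 0.33 for MCM3, 0.25 for MCM6, 0.19 for MCM5 and 0.18 for MCM7. The other members that fell were MCM10, POLD2, DSCC1, TK1, RFC3 and POLE.

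Of the 14 members lower at 6 h than at 2 h, 13 were also lower at 6 h than in DMSO, MCM7 being the other. RRM2 was higher at 6 h than at 2 h (0.22 ± 0.0548, adjusted p = 0.00177). RPA2, the middle RPA subunit, was the other member that rose, with 112 and 114 CPM at 6 h, against 95.9 and 88.3 CPM at 2 h (log2 change 0.29 ± 0.0789, adjusted p = 0.00423).

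The number of calls between the times varied with the libraries. Without 2 h replicate 2, 6 h replicate 1 or 6 h replicate 2 it was 8 lower. MCM5 and MCM7 lost their calls when any 1 of the 2 h or 6 h libraries was left out, at -0.15 to -0.22 and -0.15 to -0.21, as did DSCC1, at -0.23 to -0.34. MCM6 lost its call without 2 h replicate 2 (-0.23), 6 h replicate 1 (-0.26) or 6 h replicate 2 (-0.25), and MCM10 without 6 h replicate 1 (-0.32). The call of POLE was lost without 2 h replicate 2 (-0.13) or 6 h replicate 1 (-0.12), and those of RFC3 and TK1 without 2 h replicate 2 (-0.21 and -0.25) or 6 h replicate 2 (-0.20 and -0.19). RPA2 lost its call without 2 h replicate 2 (0.23) or 6 h replicate 2 (0.28), and RRM2 without 2 h replicate 2 (0.21). Rises numbered 0 without 2 h replicate 2, 1 without 6 h replicate 2 and 5 with either DMSO library left out. With scaling by library size alone, which raises the median of all genes tested by 0.07 on the log2 scale in this comparison, 6 members were higher and 8 lower, and over all genes 2409 were higher and 1523 lower, against 1731 and 2041 with TMM scaling.

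Other genes of the pathway were listed with earlier results of these data known. Several of those named below share over 5% of their exonic length with other genes. These are CDK4 (44.2%), DCTPP1 (40.3%), TK2 (25.0%), POLD4 (21.3%), TIPIN (21.1%), E2F5 (18.8%), DUT (14.5%), ATR (9.3%), RAD17 (9.1%), ASF1A (7.9%) and DCK (6.4%). Which of the named related genes lose their calls when a library is left out is not given here. Of 89 genes 88 were tested, CCND1 being too low, and 26 rose and 27 fell at 6 h (29.5% and 30.7%), against 18% and 18.6% of all genes tested and 24.2% and 27.6% of the 8023 genes at the members' levels. The count of rises was 17 without 6 h replicate 1, and that of falls was 16 with either 6 h library left out. Their median log2 change was -0.04. At 2 h 7 rose and 9 fell (7.95% and 10.2%), shares near the 8.68% and 8.32% of all genes tested, and 4 fell without 2 h replicate 1. By list at 6 h, rises and falls were 14.3% and 35.7% for replication factors and 44% and 36% for the E2F, RB and G1 kinase list. They were 36.4% each for nucleotide genes, 30% and 20% for chromatin genes and 28.6% and 14.3% for checkpoint genes. No list was tested against the shares over all genes.

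Among 28 other replication factors 4 rose and 10 fell at 6 h. TIPIN, which steadies the fork together with TIMELESS, fell (-1.01 ± 0.153, adjusted p = 5.48e-07), with 13.03 and 14.5 CPM at 6 h, against 22.9 and 32.4 CPM in DMSO. TIMELESS rose (0.37 ± 0.0795, adjusted p = 0.000174), so the mRNAs of these partners were called in opposite directions. POLE3, a histone-fold subunit of polymerase epsilon, fell (-0.64 ± 0.0685), as did the origin recognition gene ORC2 (-0.50 ± 0.104), while the polymerase delta subunit POLD4 (1.67 ± 0.327) rose at a low level of 6.75 and 5.34 CPM at 6 h, against 1.44 and 2.32 CPM in DMSO. MCM9, a helicase of DNA repair, rose (0.35 ± 0.139).

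In the E2F, RB and G1 kinase list, 25 genes tested, 11 rose and 9 fell at 6 h. E2F7, a repressor among the E2F factors, rose (0.77 ± 0.0872, adjusted p = 6.84e-10), with 104 and 101 CPM at 6 h, against 55.1 and 65.1 CPM in DMSO. E2F5 fell (-0.63 ± 0.118). Of the kinases that act with D cyclins, CDK4 fell (-0.60 ± 0.0893, adjusted p = 3.95e-07) and CDK6 rose (0.57 ± 0.0556, adjusted p = 1.34e-11), with 985 and 924 CPM at 6 h, against 611 and 674 CPM in DMSO. SKP2, which marks the CDK inhibitor p27 for removal, fell (-0.48 ± 0.0806), and LIN52, part of the DREAM complex, rose (0.62 ± 0.155).

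In the nucleotide list of 11 genes 4 rose and 4 fell at 6 h. RRM2B, the p53-induced small subunit of ribonucleotide reductase, rose (0.71 ± 0.0913, adjusted p = 1.5e-08), as had RRM2, and TK2 (1.07 ± 0.178) and DCK (0.27 ± 0.0901), kinases of deoxynucleoside salvage, rose too. DCTPP1, which clears modified dCTP, fell (-0.79 ± 0.0778, adjusted p = 1.86e-11), as did the dUTPase DUT (-0.19 ± 0.0746).

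Of 10 chromatin replication genes 3 rose and 2 fell at 6 h. The histone chaperones ASF1B (0.56 ± 0.0874) and ASF1A (0.27 ± 0.105), which hand histones to CAF-1, and their kinase TLK1 (0.33 ± 0.0981) rose, while CHAF1A fell as given above. TONSL (-0.63 ± 0.0922) and MMS22L (-0.28 ± 0.106), which form a complex that acts at stalled forks, fell. Of 14 checkpoint and repair genes 4 rose and 2 fell, with ATR (-0.39 ± 0.0766) and CHEK1 (-0.21 ± 0.074), the kinases that answer stalled forks, lower and BRCA2 (0.39 ± 0.0956), RAD17 (0.34 ± 0.1) and BRCA1 (0.22 ± 0.0832) higher. MYC, a transcription factor that activates many growth genes, had 884 and 824 CPM in DMSO, 537 and 534 CPM at 2 h and 464 and 462 CPM at 6 h, with log2 changes of -0.67 ± 0.0545 at 2 h and -0.88 ± 0.0547 at 6 h.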

How the data were processed

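RNA was sequenced from 6 JJN3 libraries, 2 from DMSO cells and 2 from each WNK463 time, 2 h and 6 h. The deposited values are counts of fragments per gene, which the authors made with featureCounts 2.0.0 on GENCODE 34 and hg38 without regard to strand, from properly paired reads of mapping quality 20 or more, per the file headers. Trimming used Trimmomatic and alignment used STAR, per the submitters' processing notes (versions not given in the sources used here). Since strand was ignored, reads of overlapping genes cannot be told apart, and 11 members share over 5% of their exonic length. Pseudogenes with a member's symbol (21) held at most 35 counts. The table's ANK2 entry spanned 3 lines and was joined again.

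From the counts, edgeR 4.0.16 in R 4.3.3 fitted the group means of all 6 libraries at once, after filterByExpr and with TMM factors between 0.977 and 1.025. This fit was first tested on simulated data. Calls were made at an adjusted p under 0.05 (Benjamini-Hochberg, over 15548 genes). SEs were derived from the F statistic. The biological coefficient of variation was 7.72%. Replicates differed by more than counting noise (chi-square per degree of freedom 8.41 in DMSO, 4.15 at 2 h and 3.57 at 6 h), and log CPM of replicates correlated at 0.984 in DMSO, 0.982 at 2 h and 0.984 at 6 h. Alternatives were other scalings, filters, tests (DESeq2 1.42.0, limma 3.58.1 voom), groups, thresholds, a replicate block and leaving out each library, 17 in all. The members and lists were chosen with earlier results of these data known. Values by library are given for the 6 largest called falls and rises in each comparison with DMSO and for MCM2 to MCM7, GINS1 to GINS4, CDC6, CDT1, PCNA, RRM2 and the cyclin E, CDC25A and E2F genes, and related genes are named up to 3 for each list and direction at 6 h, plus MYC (1 gene that this rule takes in is not reported here). Promoters came from RefSeq. Python 3.11.15 and matplotlib 3.10.9 drew the figures.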

Additional observations from a re-analysis of the deposited data

Results flagged for a closer look

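The change from DMSO differed between 6 h and 2 h of WNK463, by edgeR's test of 6 h against 2 h, in 16 members. Of the 55 members 25.5% were lower and 3.64% higher, against 13.1% and 11.1% of all genes tested. Among the 8023 genes at the members' levels 22.2% were lower and 15.7% higher. The values are the log2 change at 6 h minus that at 2 h. The largest negative differences were -0.69 for GINS2, -0.59 for CDC25A and -0.56 for MCM4. CDC25A was called below DMSO at 6 h, while its value above DMSO at 2 h was not called (log2 change 0.16, adjusted p = 0.234 by edgeR). MCM10 differed by -0.39 and the helicase subunits MCM2 by -0.38, MCM3 by -0.33, MCM6 by -0.25, MCM5 by -0.19 and MCM7 by -0.18. POLD2 differed by -0.31, DSCC1 by -0.28, TK1 and RFC3 by -0.27 each, and POLE by -0.21. The positive differences were 0.22 for RRM2 and 0.29 for RPA2. Groups of 2 libraries are too small to test for outlying samples.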

How the results depend on the processing

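No named member reversed direction while called under any of the 17 alternatives. Of 23 members called at 6 h against DMSO 13 were called under all 17 (GINS2, MCM3, MCM4, MCM5, MCM6, MCM10, CDC25A, CHAF1A, RFC3, RFC5, POLD2, FEN1 and RRM2), 10 were lost under at least 1 and 7 others were gained. Of 16 called at 6 h against 2 h 6 were called under all, and of 5 called at 2 h 0 were (edgeR, DESeq2 and limma each made calls there with all libraries). Depth, 18013790 to 24002291 counts, and 2 libraries a group limit the detection of small changes. At 2 h against DMSO, members higher numbered 1 (2 in the text) with library size alone, no filter beyond 1 count, DESeq2, the 2 groups alone or a threshold of 0.01. Members lower numbered 9 with library size alone, 6 with a mean of at least 4 CPM and 0 at 0.01 (3 in the text), and related genes lower 4 at 0.01. At 6 h against DMSO, members higher numbered 1 and related genes lower 17 at 0.01. At 6 h against 2 h, members higher numbered 6 with library size alone, 5 with a mean of at least 4 CPM and 5 with the 2 groups alone, and members lower 8 with library size alone and 9 at 0.01. Leaving out 1 library gave 0 to 3 members higher and 0 to 6 lower at 2 h, 1 to 3 higher and 14 to 20 lower at 6 h, and 0 to 5 higher and 8 to 19 lower between the times. For related genes it gave 4 to 12 lower at 2 h, and 17 to 28 higher and 16 to 26 lower at 6 h. Over all genes, 1349 higher and 1293 lower at 2 h became 776 to 1589 and 751 to 1322 with 1 library left out, and 804 and 756 at 0.01; 1731 and 2041 between the times became 1022 to 2171 and 1262 to 2557, and 1103 higher at 0.01. The cause of these moves was not tested. Over all genes tested, the differences between replicates were nearly uncorrelated between the groups (r = -0.0054, -0.038 and -0.021). Such values cannot show whether same-numbered libraries shared a culture or a day. The count columns are lettered A for replicate 1 and B for replicate 2, and the labels do not explain the letters. With the replicate block 2 members were higher and 3 lower at 2 h, 3 and 20 at 6 h, and 2 and 14 between the times, the counts without it.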
